A study of Mus with 21 samples.

Results

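The keratin genes of mouse skin wounds were followed here, except for the wound keratins Krt6a, Krt6b, Krt16 and Krt17. Every gene symbol in the files that starts with Krt and a number was taken, keratin associated proteins left out, which gave 54 keratins. Without the 4 wound keratins, 50 members remained among 18806 genes. They were placed by their known site of expression as 3 basal, 12 suprabasal, 6 simple, 8 inner root sheath or companion layer and 16 hair shaft keratins, with 5 unplaced (Krt12, Krt42, Krt88, Krt90 and Krt222).

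RNA was sequenced from 21 samples of skin wounds of wild-type C57BL/6 mice, females 8 weeks of age at purchase. The samples were taken 4 days after round full-thickness wounds of 8 mm had been punched and splinted on both sides of the back. The 3 control samples came from wounds without a hydrogel scaffold. The other 18 came from wounds given a GelMA hydrogel (gelatin methacryloyl, a light-cured gelatin) adjusted to pH 6.4, 7.4 or 8.4. It was loaded with aFGF or bFGF, acidic or basic fibroblast growth factor, with 3 samples for each of the 6 combinations. The labels call the samples biological replicates and the methods give 3 mice per group, but which mouse gave which sample is not stated. Mice were sacrificed on day 4 and on later days, and how many mice of a group gave day 4 samples is not stated either. Names such as 6.4/aFGF give the pH of the gel, then the growth factor. No group analysed here had a hydrogel without growth factor, so hydrogel and growth factor cannot be told apart in the comparison with control.

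Keratins are the intermediate filament proteins of epithelial cells. A filament is built from pairs of a type I and a type II chain, and the pair in use changes with the layer and the type of epithelium. Basal keratinocytes make Krt5 with Krt14, cells that leave the basal layer change to Krt1 with Krt10, single-layered and glandular epithelia make Krt8 with Krt18, and the hair follicle has its own set. In the RefSeq mouse gene table, which held 49 of the 50 members, the type I genes of the family lie together on chromosome 11, and the type II genes lie on chromosome 15 with Krt18 as a type I neighbour of Krt8.

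Counts totalled 34362558 to 37817833 per library. CPM, counts scaled to a common library total after TMM normalization, were used to compare libraries, and FPKM, which also divide by gene length, were used to compare genes. Of the 50 members, 31 passed edgeR's default filter on low counts and were tested within a fit of 15811 genes. The 10 keratinocyte markers checked, such as Cdh1, Epcam, Sfn and Trp63, were each above 1 CPM in all libraries, with summed levels of 1133 to 2719 CPM. The fibroblast markers, as a sum of 6 genes, ranged from 32721 to 71717 CPM. In such bulk samples, fewer cells of a type and less RNA per cell cannot be told apart. Genes of cartilage and oviduct and the liver gene albumin stood out in 3 libraries. Albumin was at 138.4 CPM in 8.4/aFGF 2. The sum of 11 liver markers was not highest there, at 1028 CPM, but in 7.4/bFGF 3, at 1504 CPM. Cartilage collagen Col2a1 was at 200.1 CPM in 7.4/aFGF 3, and the oviduct gene Ovgp1 at 80.2 CPM in 8.4/bFGF 2. The tests below were repeated without the 3 libraries that stood out, and the count of members called stayed at 0 in all 10 comparisons. This leaves in the libraries with high mammary or mesothelial markers, which are given beside the simple keratins.

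The members together took 0.193% to 0.543% of the counts of a library. Per length, basal keratins made up 69.0% to 88.1% of the members' summed FPKM, suprabasal keratins 9.91% to 30.0%, and simple keratins 0.660% to 13.4%. Hair shaft keratins made up at most 0.285% and inner root sheath and companion layer keratins at most 0.278%. The wound keratins, for scale, had summed FPKM of 979 to 2308, against 800.2 to 2292 for the basal keratins. The heat map of all members gives this order at a glance.

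**Figure D1:**
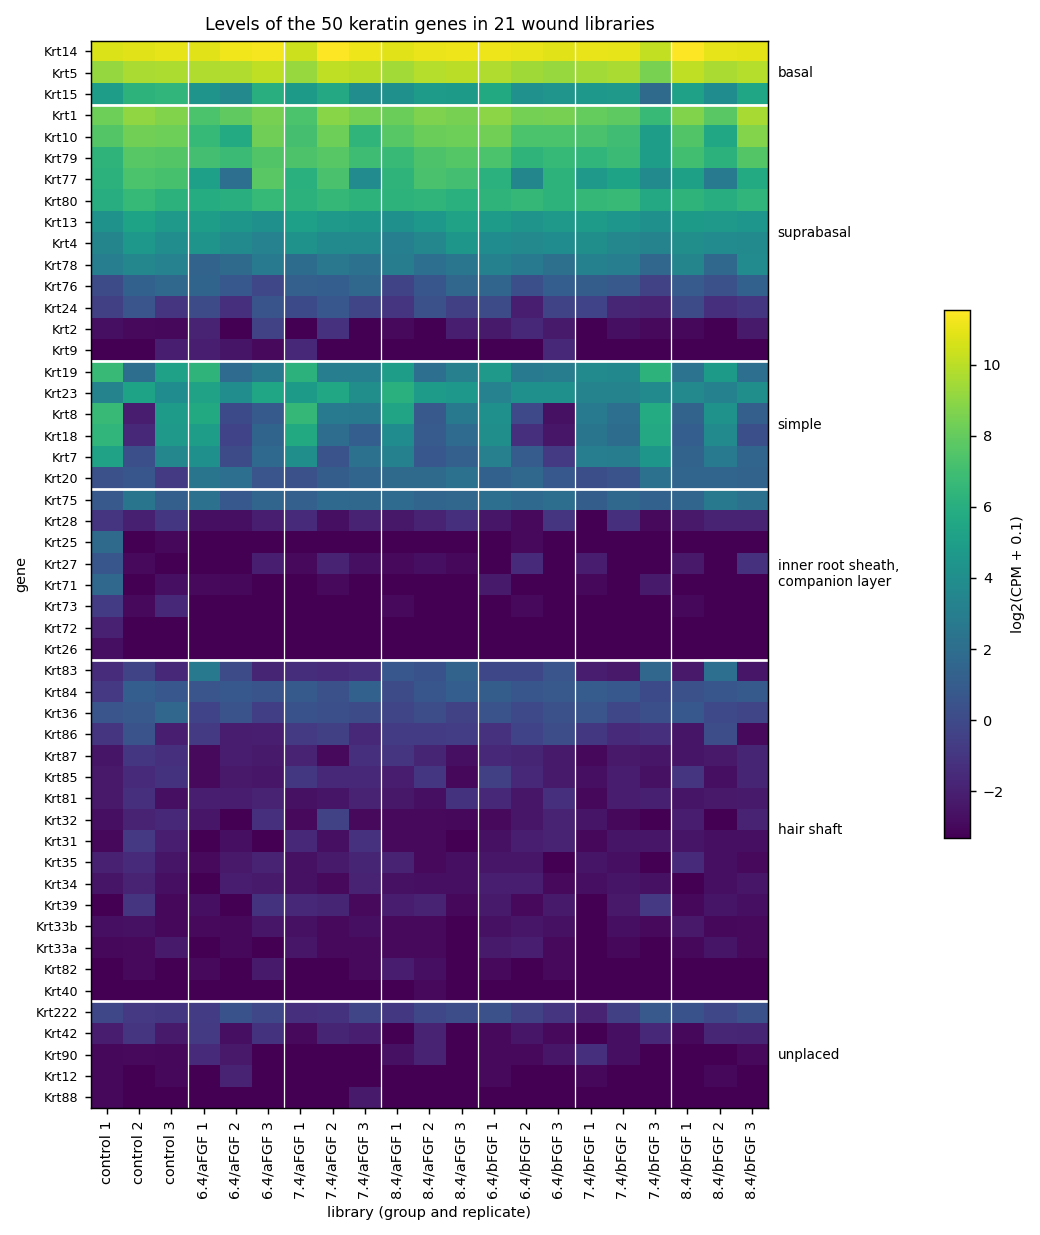
Heat map of log2(CPM + 0.1) for the 50 keratin genes (rows, by class and falling mean FPKM) in the 21 libraries (columns, 3 per group). Krt14 and Krt5 are high in all libraries, Krt8, Krt18, Krt7 and Krt19 are high in some libraries of several groups and low in others, and Krt25 and Krt71 stand out in control 1 alone.

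In edgeR's quasi-likelihood test over all 21 libraries, 0 of the 31 tested members differed among the 7 groups once p was adjusted by Benjamini-Hochberg (threshold 0.05), and 18 of the 15811 genes did (0.114%). At an unadjusted p under 0.05, 1 member (Krt23) and 3055 genes (19.3%) differed. DESeq2 with default settings called 1 member, Krt23, at an adjusted p of 0.0119. The members varied more from library to library than most genes. The standard deviation of log2 CPM exceeded the median of all tested genes, 0.32, in 29 of the 31. The share of that variance that lay between groups exceeded the median of all genes, 39.1%, in only 5 of the 31.

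Krt14, the type I chain of the basal layer, had the highest level of the family, with a mean of 1214 FPKM. It was at 1722, 1881 and 2009 CPM in the control libraries, at 1890, 2363 and 2610 in 6.4/aFGF, at 1325, 2858 and 2243 in 7.4/aFGF, at 1881, 2213 and 2314 in 8.4/aFGF, at 2280, 2117 and 1862 in 6.4/bFGF, at 2072, 1995 and 1143 in 7.4/bFGF, and at 2955, 2026 and 1947 in 8.4/bFGF. All groups overlapped, and the highest library was 2.59-fold above the lowest, 7.4/bFGF 3. The control mean was 1871 ± 143.7 CPM (SD, n = 3), and the 6 hydrogel groups differed from it by 0.16 in log2 fold change (standard error 0.192, edgeR adjusted p = 0.699).

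Krt5, the type II partner of Krt14, had a mean of 374 FPKM and ranged from 373.5 CPM in 7.4/bFGF 3 to 1120 CPM in 7.4/aFGF 2. It followed Krt14 closely over the 21 libraries (Pearson r = 0.89, permutation p = 1e-05, the smallest that 100000 permutations can give, and Spearman rho = 0.84, permutation p = 1e-05). Adjusted over the 9 pairs of keratins examined, these were 4.5e-05 and 3e-05. Without the 2 libraries farthest from the median of Krt5, r was 0.81. The ratio of Krt5 to Krt14 counts stayed between 0.319 and 0.476.

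Krt15, a type I keratin of basal cells and of the hair follicle bulge, was far less even. It was at 30.8, 78.1 and 86.5 CPM in control, and the lowest library was again 7.4/bFGF 3 at 3.43 CPM. The remaining hydrogel libraries lay between 12.4 and 64.3 CPM. Control was highest by mean (65.1 ± 30.0 CPM, SD, n = 3), but control 1 lay inside the hydrogel range. The log2 fold change of the hydrogel groups against control was -1.27 (standard error 0.489, unadjusted p = 0.0193, edgeR adjusted p = 0.218), which did not pass the threshold.

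Over the 21 libraries, the genes whose log2 CPM followed Krt14 most closely were Perp (r = 0.89), Krt5, Krt6a (r = 0.88), Krt16 (r = 0.86) and Krt6b (r = 0.85). Perp is a desmosomal membrane protein of stratified epithelia. These are descriptions, taken from the top of 15811 genes that share library and depth. Krt15 followed the suprabasal Krt10 (r = 0.86) and Krt79 (r = 0.84) more closely than Krt14 (r = 0.49).

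Krt1 and Krt10, the pair of the differentiating layers, spanned wider ranges. Krt1, the type II chain, had a mean of 142 FPKM. It was at 303.7, 533.7 and 426.4 CPM in control, at 157, 239.1 and 355.1 in 6.4/aFGF, at 162.1, 467.3 and 349.4 in 7.4/aFGF, at 298.4, 406.3 and 362.8 in 8.4/aFGF, at 502.5, 348.8 and 364.4 in 6.4/bFGF, at 258.3, 229.2 and 103.4 in 7.4/bFGF, and at 421.5, 214.4 and 774.4 in 8.4/bFGF. The 3 libraries of 6.4/bFGF all lay above those of 7.4/bFGF, while 8.4/bFGF overlapped with 7.4/bFGF.

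Krt10, the type I chain, had a mean of 95.8 FPKM and ranged 13.7-fold. It was at 190.3, 334.9 and 302.3 CPM in control, at 98.8, 54.4 and 315.3 in 6.4/aFGF, at 144.1, 303.6 and 82.8 in 7.4/aFGF, at 205.5, 289 and 306.9 in 8.4/aFGF, at 324.9, 159.7 and 157.9 in 6.4/bFGF, at 155.2, 125.4 and 32.2 in 7.4/bFGF, and at 184, 45.7 and 439.7 in 8.4/bFGF. The lowest and the highest libraries came from bFGF groups, and 8.4/bFGF held both a very low and the highest value.

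Krt1 and Krt10 followed each other over the 21 libraries (r = 0.81, permutation p = 2e-05, and rho = 0.85, permutation p = 1e-05; adjusted over the 9 pairs, 6e-05 and 3e-05). The ratio of Krt10 to Krt1 counts was nonetheless 0.213 in 8.4/bFGF 2, 0.227 in 6.4/aFGF 2 and 0.237 in 7.4/aFGF 3, and 0.311 to 0.889 in the other 18 libraries. Of these 3 libraries, 8.4/bFGF 2 and 7.4/aFGF 3 are among those with genes of oviduct or cartilage, and 6.4/aFGF 2 is not. In 8.4/aFGF 2, which stood out for albumin, the ratio was 0.711. The part of other tissue in this ratio was not tested.

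Between the layers the tie depended on the pair. Krt5 and Krt14 each had r = 0.61 with Krt1, Krt15 had r = 0.74 with Krt1, and Krt5 had r = 0.77 with Krt79. Krt14 against Krt10 gave r = 0.41 (permutation p = 0.0644, adjusted 0.0966) and rho = 0.23 (permutation p = 0.322, adjusted 0.484), with r = 0.11 without the 2 libraries farthest from the median of Krt14. The ratio of Krt10 to Krt14 counts ranged from 0.0226 to 0.226, both in 8.4/bFGF, a spread of 10.0-fold against 1.49-fold for Krt5 to Krt14. The genes closest to Krt10 were Lor (r = 0.92), Flg2 (r = 0.92) and Lce1m (r = 0.90), which encode proteins of the cornified layers.

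**Figure D2:**
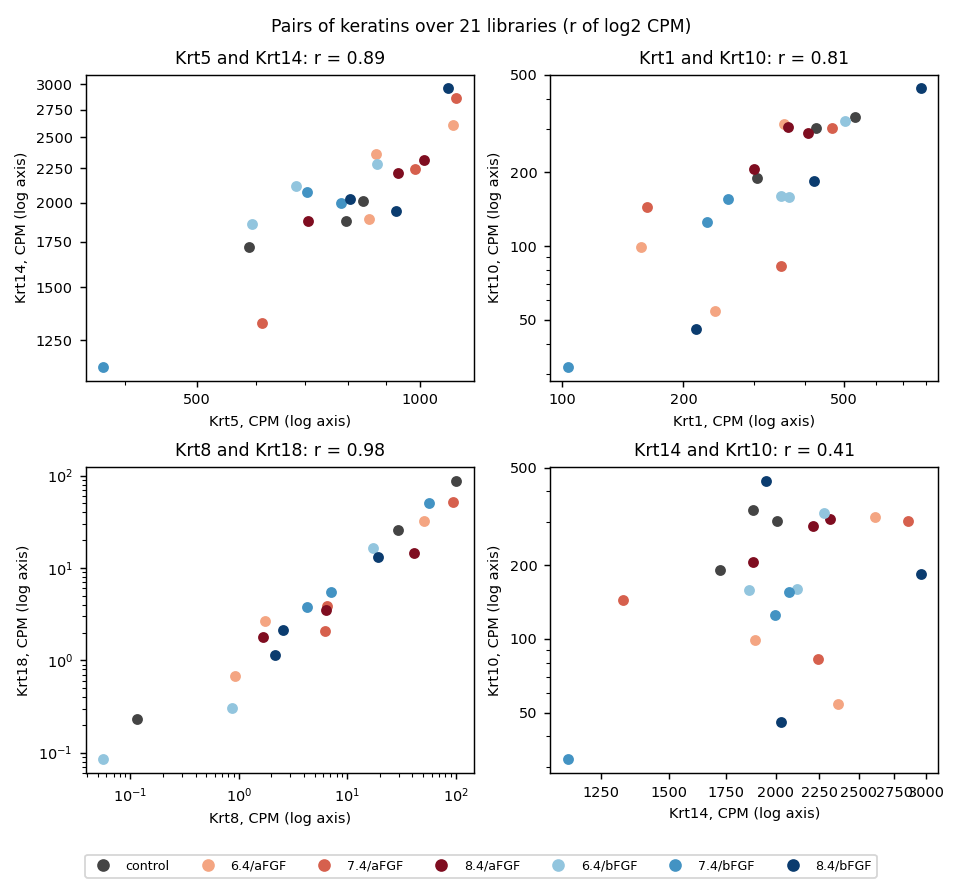
Pairs of keratins plotted against each other in CPM on log axes, 1 point per library, coloured by group. Krt5 with Krt14, Krt1 with Krt10 and Krt8 with Krt18 lie along a line (r = 0.89, 0.81 and 0.98), and Krt14 with Krt10 scatter (r = 0.41).

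Krt77, a type II keratin of suprabasal epidermis and sweat gland ducts whose gene lies next to Krt1, ranged 51.3-fold. It was at 75.9, 163.3 and 148.1 CPM in control, at 33.7, 4.16 and 213.5 in 6.4/aFGF, at 69.6, 151.8 and 14.5 in 7.4/aFGF, at 79.5, 155.4 and 136.4 in 8.4/aFGF, at 72.1, 11.0 and 78.6 in 6.4/bFGF, at 25.2, 38.4 and 13.2 in 7.4/bFGF, and at 34.7, 7.00 and 54.7 in 8.4/bFGF. Within 6.4/aFGF it held the lowest and the highest value of all 21 libraries. The bFGF libraries reached at most 78.6 CPM, and the aFGF groups overlapped with them at pH 6.4 and 7.4. At pH 8.4 the libraries of aFGF all lay above those of bFGF (log2 fold change 1.97, standard error 1.08, edgeR adjusted p = 0.315).

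Krt79, which marks the upper hair follicle and its canal, was at 31.4 CPM in 7.4/bFGF 3 and at 75.2 to 207.2 CPM in the other libraries. Krt80, a type II keratin found in many epithelia, was the steadiest suprabasal member, at 50.4 to 104.9 CPM, and only 5.89% of its variance lay between groups. Krt13 and Krt4, partners in the lining of the mouth and oesophagus, were present in all wounds, Krt13 at 17.2 to 39.2 CPM and Krt4 at 8.54 to 24.5 CPM. Over the 21 libraries they had r = 0.96, and 7.76% and 8.35% of their variance lay between groups. This pair was picked after its values were seen.

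The remaining suprabasal members were lower. Krt78 ranged from 2.60 to 14.3 CPM, Krt76 from 0.629 to 3.13 CPM and Krt24 from 0.139 to 1.51 CPM. Krt2, which belongs to the upper layers of mouse tail and ear epidermis, and Krt9, of palm and sole epidermis, did not pass the filter. They reached at most 24 and 8 counts and were at 0 counts in 6 and 15 libraries.

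**Figure D3:**
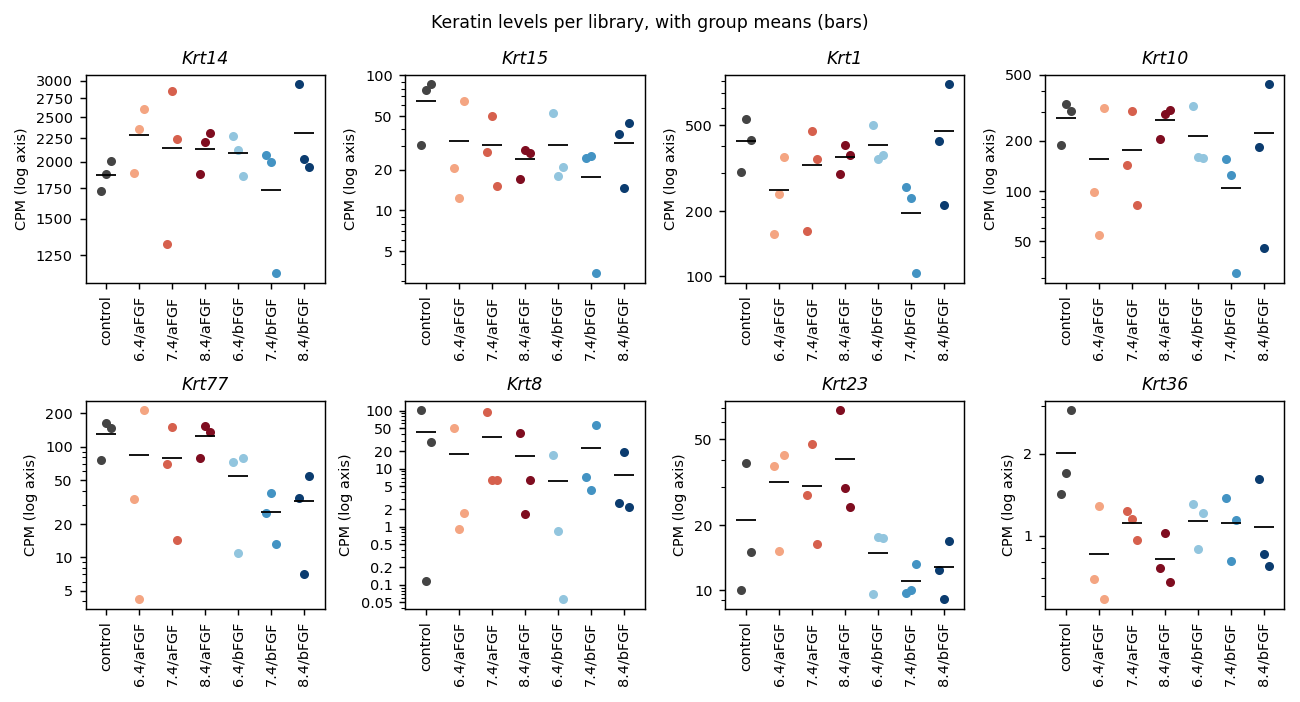
Levels of 8 keratins in CPM on log axes, with 3 libraries per group as points and the group means as bars. All groups overlap for Krt14. For Krt1, Krt10 and Krt77 some pairs of groups do not overlap. Examples are 6.4/bFGF above 7.4/bFGF in Krt1, control above 7.4/bFGF in Krt10, and 8.4/aFGF above 8.4/bFGF in Krt77. The libraries of a group differ most in Krt8, and Krt23 is higher with aFGF than with bFGF at pH 7.4 and 8.4 without overlap.

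The simple keratins varied most. Krt8, the type II chain of single-layered epithelia, was at 101.2, 0.115 and 29.2 CPM in control, at 50.9, 0.916 and 1.75 in 6.4/aFGF, at 93.8, 6.497 and 6.27 in 7.4/aFGF, at 41.4, 1.69 and 6.35 in 8.4/aFGF, at 17.3, 0.862 and 0.0562 in 6.4/bFGF, at 7.10, 4.27 and 56.9 in 7.4/bFGF, and at 2.56, 19.1 and 2.16 in 8.4/bFGF. The highest library (control 1, 3836 counts) was 1801-fold above the lowest (6.4/bFGF 3, 2 counts). Each group held a library at 17.3 CPM or more and a library at 6.27 CPM or less, and 17.2% of its variance lay between groups.

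Its type I partner Krt18, whose gene is its neighbour, moved with it. Krt18 was at 87.2 CPM in control 1, 51.3 in 7.4/aFGF 1, 50.3 in 7.4/bFGF 3, 32.2 in 6.4/aFGF 1 and 25.9 in control 3, and at 0.0843 to 16.6 CPM in the other libraries. Krt8 against Krt18 gave r = 0.98 and rho = 0.98 (permutation p = 1e-05 for each, adjusted 4.5e-05 and 3e-05), and r = 0.97 without the 2 libraries farthest from the median of Krt8. Measured as deviations from the group means, r was 0.98.

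Krt7 and Krt19, a type II and a type I keratin of ducts and glands, were high in the same libraries as Krt8, though not in the same order. Krt7 ranged from 0.478 to 37.3 CPM and Krt19 from 3.56 to 108.8 CPM, with control 1 highest in both. Against Krt8 they had r = 0.91 and r = 0.87 over the 21 libraries. Krt19 ran opposite to the basal Krt14, with r = -0.65. Krt14 against Krt8 gave r = -0.41 (permutation p = 0.0621, adjusted 0.0966) and rho = -0.38 (permutation p = 0.0869, adjusted 0.196), with r = -0.16 without the 2 farthest libraries.

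The other genes closest to Krt8 were Cldn7 (r = 0.91), a tight junction protein, Vtcn1 (r = 0.91), Tmprss2 (r = 0.90), Wfdc2 (r = 0.90) and Prlr (r = 0.89), the prolactin receptor. A list of 13 mammary epithelium markers, written after these genes had been seen and holding 4 of the 20 closest, had a summed level of 216.9 CPM in control 1, 120.4 in 7.4/bFGF 3, 107.5 in 7.4/aFGF 1, 105.3 in 6.4/aFGF 1 and 77.8 in control 3, and 5.03 to 41.3 CPM in the other libraries. Its 9 genes outside the 20 closest summed to 49.98, 23.6, 13.6, 20.2 and 21.3 CPM in these 5 libraries and to 2.01 to 11.0 CPM in the others. Among the genes of the list, Prlr reached 87.8 CPM, the casein gene Csn3 38.03 CPM and Foxa1 34.1 CPM, all in control 1. The milk genes Csn2, Csn1s2a and Wap reached at most 0.172, 0.0304 and 0.132 CPM.

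Adipocyte markers (6 genes) also had their highest sums in control 1 (9063 CPM) and 7.4/bFGF 3 (6927 CPM). They were at 4835 CPM in control 3, 3876 CPM in 6.4/aFGF 1 and 2218 CPM in 7.4/aFGF 1, where Krt8 was at 29.2, 50.9 and 93.8 CPM. In 6.4/aFGF 2 they stood at 4522 CPM, where Krt8 was at 0.916 CPM. Markers of mesothelium, another lining that makes Krt8 and Krt18, reached 69.1 CPM in 7.4/bFGF 2, where Krt8 was at 4.27 CPM, and were at 3.93 CPM in control 1. The part of other tissue in the simple keratin levels was not tested.

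**Figure D4:**
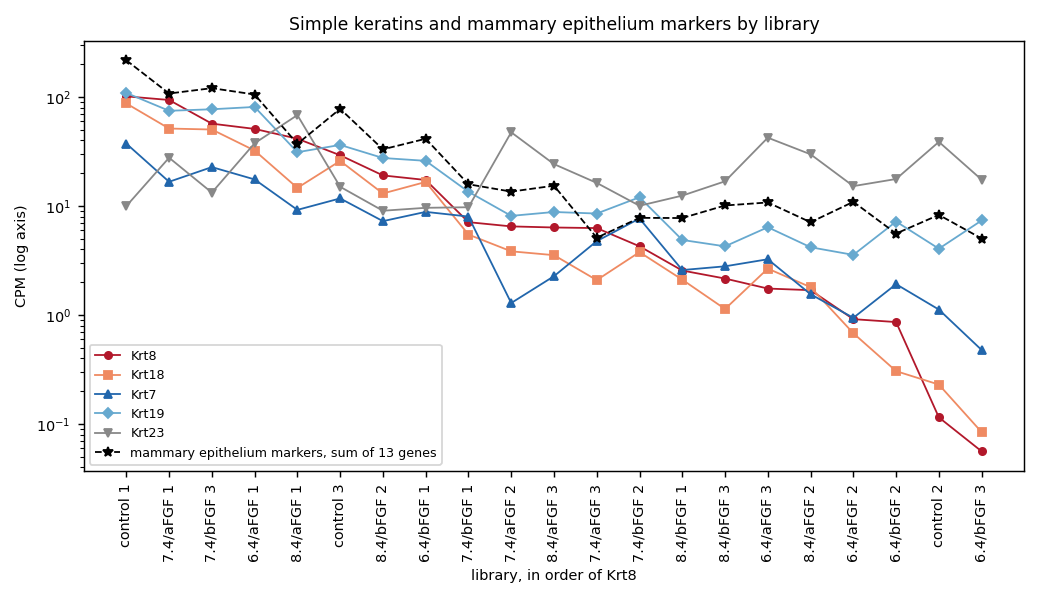
Simple keratins and the sum of 13 mammary epithelium markers in CPM on a log axis, with the 21 libraries in order of Krt8. Control 1 is highest in Krt8, Krt18, Krt7, Krt19 and the marker sum, which tend to be lower toward 6.4/bFGF 3, and Krt23 does not follow. The list holds 4 of the 20 genes closest to Krt8.

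Krt23, a type I keratin of glandular epithelia, behaved apart from the other simple keratins. It was at 9.97, 38.7 and 15.0 CPM in control. With aFGF it was at 37.6, 15.2 and 42.3 at pH 6.4, at 27.7, 47.4 and 16.3 at pH 7.4, and at 68.2, 29.8 and 24.2 at pH 8.4. With bFGF it was at 9.62, 17.7 and 17.4 at pH 6.4, at 9.74, 10.0 and 13.3 at pH 7.4, and at 12.4, 9.04 and 16.8 at pH 8.4.

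The aFGF libraries thus lay above the bFGF libraries without overlap at pH 7.4 and 8.4 and overlapped with them at pH 6.4. Control ran from 9.97 to 38.7 CPM, and the libraries of all groups from 9.04 to 68.2 CPM. At pH 8.4 Krt23 averaged 40.7 ± 23.9 CPM with aFGF and 12.8 ± 3.91 CPM with bFGF (SD, n = 3 each). This was a difference of 1.70 in log2 fold change (standard error 0.542, unadjusted p = 0.0061, edgeR adjusted p = 0.116). The difference was 1.47 at pH 7.4 (standard error 0.539, edgeR adjusted p = 0.235) and 1.11 at pH 6.4 (standard error 0.534, edgeR adjusted p = 0.688). At pH 8.4 the difference fell to 1.09 without 8.4/aFGF 1, the highest library. In edgeR none of the 3 passed the threshold. DESeq2 called Krt23 at pH 8.4 (log2 fold change 1.69, adjusted p = 0.0314), and over the 32 alternatives the adjusted p there ranged from 0.0314 to 0.391.

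Of the variance of Krt23, 54.9% lay between groups, the largest share among the 31 tested members. The genes that followed it most closely were Nr4a3 (r = 0.91), an early response nuclear receptor, Uap1 (r = 0.90) and Gfpt2 (r = 0.89), enzymes of the hexosamine pathway, and Tnfaip6 (r = 0.89). A list of 13 immediate early genes, also written after this was seen and holding Nr4a3, had sums of 3694, 1737 and 1698 CPM in 8.4/aFGF and 1484, 1176 and 1306 CPM in 8.4/bFGF. It was highest in 8.4/aFGF 1, the library with the highest Krt23. At pH 7.4 the sums were 1981, 1625 and 1712 CPM with aFGF and 1000.2, 1211 and 2050 CPM with bFGF, and overlapped. The part of these genes in the Krt23 levels was not tested.

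Krt20, a keratin of Merkel cells and of gut lining, was at 1.16, 1.47 and 0.486 CPM in control and at 1.07 to 5.29 CPM in the hydrogel libraries. All control values lay at or under 1.47 CPM, and only 4 of the 18 hydrogel libraries did. The log2 fold change of the hydrogel groups against control was 1.38 (standard error 0.478, unadjusted p = 0.0105, edgeR adjusted p = 0.191). Atoh1, which defines Merkel cells, had 0 counts in 20 of 21 libraries and 0.0274 CPM in 7.4/aFGF 2. Piezo2, their touch channel, was at 5.01 to 24.4 CPM, and Sox2 and Isl1 reached 1.40 and 1.18 CPM. The 5 Merkel markers summed to 7.94 to 28.1 CPM. Krt20 is one of the 5, so a match between this sum and Krt20 is partly built in. The sum was highest in 6.4/aFGF 1, where Krt20 was also highest. It stood at 26.2 CPM in 7.4/bFGF 3 and 21.6 CPM in 6.4/aFGF 2, where Krt20 was at 4.63 and 4.24 CPM. But it was 27.6 CPM in 6.4/bFGF 1, where Krt20 was at 2.32 CPM, and 14.6 CPM in 8.4/aFGF 3, where Krt20 was at 4.59 CPM. The part of Merkel cells in the Krt20 levels was not tested.

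The keratins of the inner root sheath, the layer that moulds the growing hair, were nearly absent except in a single library. In control 1, Krt25 had 131 counts, Krt71 112, Krt27 55, Krt73 19 and Krt72 6. In the other 20 libraries Krt25 had at most 1 count, Krt71 at most 4, Krt27 at most 12, Krt73 at most 8 and Krt72 0, so none of these passed the filter. A count of 0 allows up to 3 counts of a library's total, which is at most 0.0912 CPM. The coefficient of the pair Krt71 and Krt27, r = 0.53 (permutation p = 0.0447, adjusted 0.0966), rested on control 1, since it was -0.29 without the 2 farthest libraries and rho was -0.09 (permutation p = 0.712, adjusted 0.712). Krt75, of the companion layer, was present in all libraries at 1.62 to 6.38 CPM, and Krt28 was at 0 to 0.405 CPM.

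The hair shaft keratins stayed low, and the highest, Krt83, had a mean of 0.690 FPKM. Krt84 was at 0.449 to 2.34 CPM and Krt86 at 0.0277 to 1.27 CPM. Krt87, Krt81 and Krt39 reached at most 0.457 CPM. Of the 16 genes, 8 passed the filter. The others, Krt31, Krt32, Krt33a, Krt33b, Krt34, Krt35, Krt40 and Krt82, had at most 24 counts in any library. Hair shaft keratins are close paralogs lying side by side, and how the counting treated reads shared between them is not given in the sources used here, so their low counts are uncertain. Krt85, a type II chain of the hair matrix, had 1 to 21 counts and its partner Krt35 had 0 to 9, and they did not follow each other (r = 0.27, permutation p = 0.231, adjusted 0.297, and rho = 0.33, permutation p = 0.149, adjusted 0.267). Krt14 with Krt27 (r = 0.15, permutation p = 0.509, adjusted 0.573) and Krt27 with Krt85 (r = 0.04, permutation p = 0.875, adjusted 0.875) did not either, with rho of 0.15 and 0.12 (permutation p = 0.504 and 0.612, adjusted 0.649 and 0.689).

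Krt36, a type I chain of hair and filiform papillae, was at 1.42, 1.70 and 2.89 CPM in control (54, 59 and 107 counts). It was at 0.583 to 1.28 CPM in 6.4/aFGF, 0.962 to 1.23 in 7.4/aFGF, 0.675 to 1.03 in 8.4/aFGF, 0.889 to 1.30 in 6.4/bFGF, 0.807 to 1.38 in 7.4/bFGF and 0.775 to 1.61 in 8.4/bFGF. All hydrogel libraries except 8.4/bFGF 1 lay under the lowest control. The hydrogel groups differed from control by -0.998 in log2 fold change (standard error 0.275, unadjusted p = 0.00212, edgeR adjusted p = 0.132), the smallest p of any member in this comparison. DESeq2 called it (log2 fold change -0.98, adjusted p = 0.0411), and so did edgeR without control 2 (log2 fold change -1.11, adjusted p = 0.0403). Without control 3, the highest library, it was -0.62 (edgeR adjusted p = 0.662), and without control 1 it was -1.19 (edgeR adjusted p = 0.332).

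Krt83, a type II chain of the hair cortex, varied 77.3-fold. It was at 6.42 CPM in 6.4/aFGF 1, 4.16 in 8.4/bFGF 2, 2.89 in 7.4/bFGF 3 and 2.59 in 8.4/aFGF 3, and at 0.0831 to 1.52 CPM elsewhere. The libraries of 8.4/aFGF (1.52, 1.25 and 2.59 CPM) and 6.4/bFGF (0.821, 0.834 and 1.43 CPM) lay above all those of control (0.264, 0.719 and 0.216 CPM) and of 7.4/aFGF without overlap, and the other groups overlapped with one another or with these. The difference among the 7 groups did not pass the threshold (edgeR adjusted p = 0.555). Between 6.4/aFGF and 7.4/aFGF it had the smallest p of the family (log2 fold change 3.20, standard error 1.47, edgeR adjusted p = 0.680), with 6.42, 0.969 and 0.194 CPM against 0.280, 0.247 and 0.302 CPM, so the groups overlapped and the fold rested on 6.4/aFGF 1. With each library left out in turn, the log2 fold change ran from 1.07 to 3.75. Retnlg, a neutrophil gene, was among its 20 closest genes (r = 0.76). Neutrophil markers summed to 7481 CPM in 6.4/aFGF 1, 9293 in 8.4/bFGF 2, 12465 in 7.4/bFGF 3 and 10801 in 8.4/aFGF 3. They also summed to 9767 CPM in 6.4/bFGF 3, 9057 in 8.4/aFGF 1 and 8218 in control 2, where Krt83 was at 1.43, 1.52 and 0.719 CPM. Their part in Krt83 was not tested.

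Of the unplaced members, Krt222, a keratin-like gene, was at 0.179 to 1.69 CPM. Krt42, a type I gene next to Krt17, was at 0 to 0.470 CPM and had the smallest p of the family for 6.4/aFGF against the other 6 groups (log2 fold change 1.57, standard error 0.805, edgeR adjusted p = 0.886) with 17, 2 and 13 counts in 6.4/aFGF. Krt90, Krt12 and Krt88 did not pass the filter and reached at most 12, 7 and 4 counts.

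For the 6 hydrogel groups against control, 0 of 31 members and 1 of 15811 genes (0.00632%) were called, which asked for an adjusted p under 0.05 together with a change beyond 0.58 on the log2 scale. At an unadjusted p under 0.05 there were 3 members and 2640 genes (16.7%). Krt36 and Krt15 were lower, as were 10.4% of all genes, and Krt20 was higher, as were 6.29%. The 4 wound keratins, for scale, had a median log2 fold change of 0.42, and 0 were called. The fold change was negative for 23 of the 31 members and for 8450 of the 15811 genes, with medians of -0.32 and -0.02. The median was 0.14 for the 3 basal, -0.30 for the 10 suprabasal and -1.37 for the 6 simple keratins. Of the simple keratins, Krt8, Krt18, Krt7 and Krt19 moved together and were each highest in control 1, so their fold changes are not separate observations. Krt8 and Krt18 had the widest standard errors of all members, 1.28 and 1.21.

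**Figure D5:**
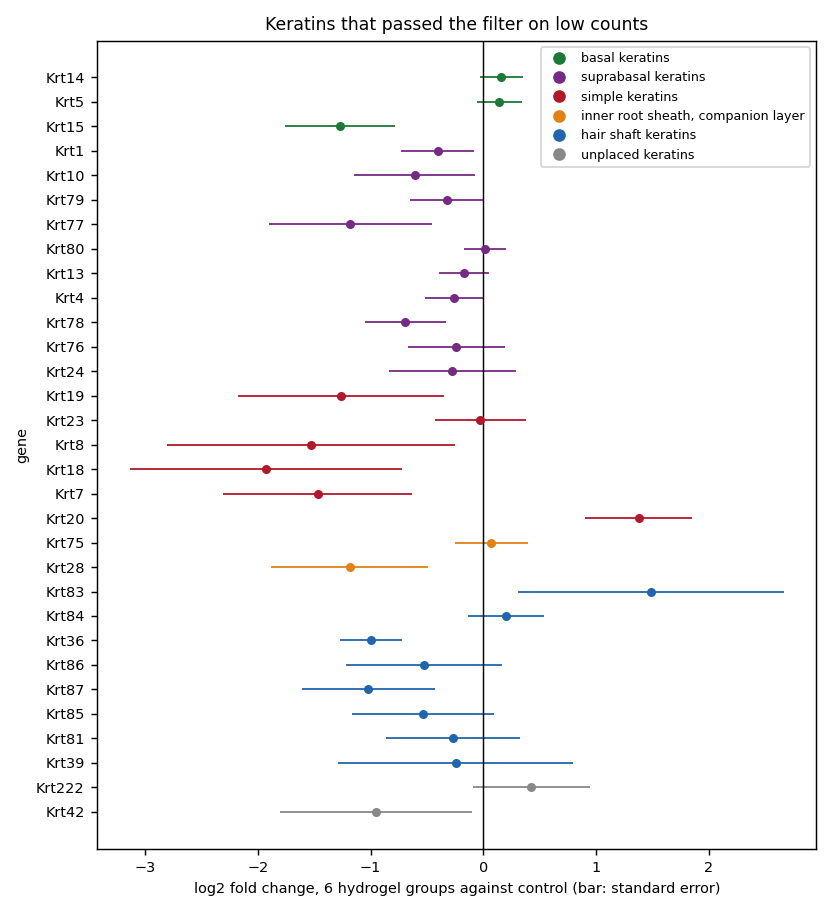
Log2 fold change of the 6 hydrogel groups against control for the 31 keratins that passed the filter, with standard errors as bars and colours by class. Krt14 and Krt5 lie near 0 with narrow bars, Krt36 lies at -0.998, Krt20 at 1.38, and Krt8 and Krt18 have the widest bars among the simple keratins.

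For 6.4/aFGF against the other 6 groups, 0 members and 0 genes were called (0%). At an unadjusted p under 0.05 there were 0 members and 895 genes (5.66%), and DESeq2 also called 0 members. Between pH 6.4 and 7.4, 0 members and 0 genes were called with either growth factor (0% each). The unadjusted threshold was passed by 1 member with aFGF (Krt83) and 1 with bFGF (Krt1), against 7.25% and 7.82% of all genes. Krt1 was higher in 6.4/bFGF than in 7.4/bFGF by 1.04 in log2 fold change (standard error 0.447, edgeR adjusted p = 0.624).

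Between pH 8.4 and 7.4, 0 members and 0 genes were called with aFGF or bFGF (0% each). With aFGF, 0 members and 4.88% of genes passed the unadjusted threshold, and Krt83 had the smallest p (log2 fold change 2.69, standard error 1.45, edgeR adjusted p = 1.00). With bFGF, 2 members passed it against 4.07% of genes, Krt1 (log2 fold change 1.25, standard error 0.449) and Krt5 (log2 fold change 0.60, standard error 0.259), both with an edgeR adjusted p of 0.999. Both comparisons with bFGF share the libraries of 7.4/bFGF, of which replicate 3 had the lowest Krt14, Krt5, Krt15, Krt1, Krt10 and Krt79 of all 21 libraries, along with the lowest keratinocyte marker sum (1133 CPM) and the highest neutrophil marker sum (12465 CPM). Without that library, the log2 fold change of Krt1 was 0.75 for pH 6.4 and 0.95 for pH 8.4. It was 0.70 for pH 8.4 without 8.4/bFGF 3, the library with the highest Krt1.

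For aFGF against bFGF, 0 members were called at pH 6.4, 7.4 and 8.4, where 0%, 0.0759% and 0.0632% of all genes were. At pH 6.4 the unadjusted threshold was passed by 1 member, Krt85 (log2 fold change -2.04, standard error 0.925, edgeR adjusted p = 0.688), and 7.15% of genes. Its libraries had 1, 4 and 3 counts with aFGF and 21, 8 and 4 with bFGF. At pH 7.4 it was passed by 3 members and 14.8% of genes. Besides Krt23, these were Krt79 (log2 fold change 1.12, standard error 0.449, edgeR adjusted p = 0.264) and Krt5 (log2 fold change 0.55, standard error 0.259, edgeR adjusted p = 0.333). This comparison also holds 7.4/bFGF 3, where Krt79 was at 31.4 CPM against 87.1 and 112.4 CPM in the other 7.4/bFGF libraries and Krt5 at 373.5 against 704 and 784 CPM. The 7.4/aFGF libraries all lay above those of 7.4/bFGF for Krt79 (168.1, 207.2 and 121.4 CPM). For Krt5 the groups overlapped (611.4, 1120 and 985.2 CPM with aFGF). At pH 8.4 it was passed by 1 member, Krt23, and 20.1% of genes. In DESeq2, 0 members were called at pH 6.4 and at pH 7.4.

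Genes that hold keratin filaments in place or control keratin genes were read beside the family. In the 10 comparisons, 0 of 14 tested desmosome genes, 0 of 6 hemidesmosome genes, 0 of 9 hair follicle regulators and 0 of 8 tested hair follicle structural genes were called with edgeR. For the hydrogel groups against control, the unadjusted threshold was passed by 3, 2, 4 and 4 of them, against 16.7% of all genes. Of these, 2 desmosome genes, 2 hemidesmosome genes and 1 hair follicle structural gene were higher and the rest lower. The fold change was negative for 8 of the 9 hair follicle regulators (median -0.77), as it was for 8450 of the 15811 genes (median -0.02). Of the 12 epidermal regulators, 1 was called. Tfap2a, a transcription factor of the AP-2 family that acts in epidermal cells, was at 13.0, 16.1 and 14.0 CPM in 7.4/aFGF and at 7.18, 6.71 and 6.60 CPM in 7.4/bFGF. The groups did not overlap and differed by 1.07 in log2 fold change (standard error 0.157, edgeR adjusted p = 0.0166). In this comparison 0.0759% of all genes were called.

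Tfap2a was not called when the fit held only the libraries compared (adjusted p = 0.351), without the 3 libraries with genes of cartilage, liver or oviduct (0.0504), or without 7.4/aFGF 2 (0.111), 7.4/bFGF 1 (0.0926), 7.4/bFGF 2 (0.110) or 7.4/bFGF 3 (0.0846). Its log2 fold change for aFGF against bFGF was 0.46 at pH 6.4 and 0.27 at pH 8.4 (edgeR adjusted p = 0.671 and 0.342). Gata3, a regulator of the inner root sheath and of luminal mammary cells, was at 24.5, 17.1 and 20.7 CPM in control and at 3.95 to 15.9 CPM in the hydrogel libraries. Its edgeR adjusted p for the hydrogel groups against control was 0.0612.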

How the data were processed

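Each of the 21 libraries, prepared from total RNA with a stranded mRNA kit, came with 2 kinds of values that the authors deposited, unnormalized read counts and FPKM. FPKM equalled count divided by a fixed gene length and the library total in 14818 genes checked (spread of the length at most 9.85e-05%). The submitters' processing notes name the build GRCm39. The aligner, counting tool and annotation are not given in the sources used here. A RefSeq table of an earlier build was used for gene names, chromosomes and neighbours only.

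The counts went into edgeR 4.0.16 under R 4.3.3 (TMM, default filter by group, quasi-likelihood test, 1 mean per group, all 21 libraries, prior count 2 for log2 CPM). Calls needed a change beyond 0.58 (log2) and p, adjusted by Benjamini-Hochberg over 15811 genes, under 0.05. For any difference among groups only the adjusted p was used. Pairs of keratins were correlated on log2 CPM with 100000 two-sided permutations. Alternatives were DESeq2 1.42.0, RLE scaling, other filters, robust dispersion, the libraries compared alone, a replicate block, no fold threshold, limma 3.58.1 on log2 FPKM (pseudocount 1 or 0.1, genes averaging 1 FPKM or more), 3 libraries left out, and each library left out. The edgeR test was tried on simulated counts. The labels call the libraries biological replicates. The study's methods give 3 mice per group, without saying how many of them gave day 4 samples. The closest replicates differed by more than counting noise (chi-square per degree of freedom 16.9). The limit of 3 counts for an undetected gene covers counting error only.

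The members and gene lists were chosen with earlier results of these data known. Named were up to 4 members per class with the highest mean FPKM, members called or with the smallest p in a comparison, and the genes of 9 pairs. Other members are given by class. Genes outside the family are the closest by r and the genes of the lists.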

Additional observations from a re-analysis of the deposited data

How the results depend on the processing

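Most results kept their side of the threshold. The count of keratins called was 0 in each of the 10 comparisons with edgeR, and it stayed 0 with RLE scaling, without a filter, with a minimum of 10 counts per library, with robust dispersion, in limma on FPKM, with the libraries compared alone or without a fold change threshold where these could be run, and without the 3 libraries with genes of cartilage, liver or oviduct. DESeq2 called 1 keratin among the 7 groups (Krt23), 1 for the hydrogel groups against control (Krt36, lower) and 1 for aFGF against bFGF at pH 8.4 (Krt23, higher), and the cause was not tested. With each library left out, the count ranged from 0 to 1 for the hydrogel groups against control (1 without control replicate 2, Krt36) and was 0 in the other comparisons. Krt14 against Krt8 gave r = -0.50 (permutation p adjusted over the 9 pairs = 0.0420) on log2(FPKM + 1), and r from -0.52 to -0.32 with each library left out, which passed the threshold without 6.4/bFGF replicate 3 (adjusted 0.0389), the library with 2 counts of Krt8. Some correlations with Krt27 that had not passed the threshold changed sign, and none passed it after the change. On log2(FPKM + 1), r was -0.0176 for Krt14 with Krt27 and -0.11 for Krt27 with Krt85, and without the 3 libraries it was -0.0069 for Krt27 with Krt85. With each library left out, r ran from -0.36 (without control replicate 1) to 0.60 for Krt71 with Krt27 and from -0.0324 to 0.15 for Krt27 with Krt85. Fold changes were followed through the alternatives only for the member with the smallest p in each comparison and for Tfap2a. None of these changed sign. The replicate numbers did not pair the libraries: libraries of the same number in different groups had correlations of their deviations from -0.64 to 0.42 (median 0.01, over 0.1 in 14 of 63 pairs), and 5 of 21 libraries correlated best with their own number. A fit with the replicate number as a block called 0 keratins in each comparison. Depth limits the rare members: most hair shaft keratins had at most 24 counts in any library, and 19 members were too low to test.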
